A study of Mus musculus with 7 samples.

Results

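Cysteine is the branch point of sulfur amino acid metabolism. Cells take it up, mostly as cystine, or make it from homocysteine by transsulfuration, through cystathionine beta-synthase (Cbs) and cystathionine gamma-lyase (Cth). Cysteine then goes into protein, into glutathione, the main thiol antioxidant, or into oxidation by cysteine dioxygenase (Cdo1) to cysteinesulfinate, which cysteinesulfinate decarboxylase (Csad) turns into hypotaurine, the precursor of taurine. A second thiol dioxygenase, Ado, makes hypotaurine from cysteamine. Taurine is one of the most abundant free amino acids of heart muscle, where most of it is imported by the transporter Slc6a6.

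The 9 genes described here are Cdo1, Csad, Ado, Slc6a6, Cbs, Cth, the catalytic and modifier subunits of glutamate-cysteine ligase (Gclc and Gclm) and glutathione synthetase (Gss). They are 9 of the 23337 genes of the count table, and all 9 passed the filter on low counts, as did 14691 genes in all. Cdo1 was chosen by its lower counts in the libraries labelled mutant than in the controls, so its difference between the groups is given as a description with no test. The 8 other genes were taken for their place in the pathway, to see whether the difference in Cdo1 is shared by its neighbours.

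Poly(A) RNA was sequenced from left ventricles microdissected from mouse embryos at embryonic day 12.5. The embryos of all 7 libraries carried Gt(ROSA)26Sortm1(cre/ERT2)Tyj, the tamoxifen-activated recombinase CreERT2 at the Rosa26 locus, which is active in most cell types. The 5 control libraries were from Tbx5+/+ embryos and the 2 mutant libraries from Tbx5flox/flox embryos. In both groups the dam was injected intraperitoneally with tamoxifen at E11.5. Tbx5 is a cardiac transcription factor of the T-box family, and the question put to these genes is how their transcripts differ after its deletion. No litter, sex or batch is named in the labels, so p-values measure only the spread between these samples, which may be technical.

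Library totals ran from 20268208 to 24440806 counts. Counts over the whole Tbx5 gene were not lower in the libraries labelled mutant (1894 and 2602, against 1297 to 2165 in the controls), and since they include exons outside a deleted part they are no check of it. The genotype of each library is therefore that of its label. Control replicates 1 and 3 had almost no Xist, the transcript of the silenced X chromosome (0.689 and 1.09 CPM, against at least 311 in the other libraries), and no library labelled mutant was like them. Muscle genes listed as ventricular markers were abundant in every library, with summed levels of 34410 to 41280 CPM over 7 genes, and none of them was at 0. The sum hides opposite differences in Myl2 and Myh7, both named after their values were seen. Myl2 averaged 9013 CPM in the controls and 5995 CPM in the libraries labelled mutant, and Myh7 8911 and 13258 CPM. Neither reached an adjusted p of 0.05 (0.0586 for Myl2 and 0.0711 for Myh7, edgeR quasi-likelihood test). CPM are counts scaled to a common library total after scaling by edgeR's TMM factors.

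Of the 8 genes other than Cdo1, 0 were called, at an adjusted p of at most 0.05 in the edgeR quasi-likelihood test, beside 1.36% of all tested genes (0.899% called lower and 0.463% called higher). That balance rested on mutant replicate 1: there were 132 lower and 68 higher genes with it and 62 lower and 151 higher genes without it. Cdo1 is past the same threshold, which its choice fixed, and nothing is read from that. None of the 8 had an unadjusted p under 0.05, a level that 17.6% of tested genes reached. DESeq2 and limma-voom also called 0 of the 8. Their median log2 fold change was -0.03, with 4 positive and 4 negative values, beside a median of -0.0080 over all tested genes. Exact two-sided permutation tests over the 7 libraries gave the 8 genes p-values of 0.0952 to 0.857, where the smallest possible value was 0.0476.

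**Figure D1:**
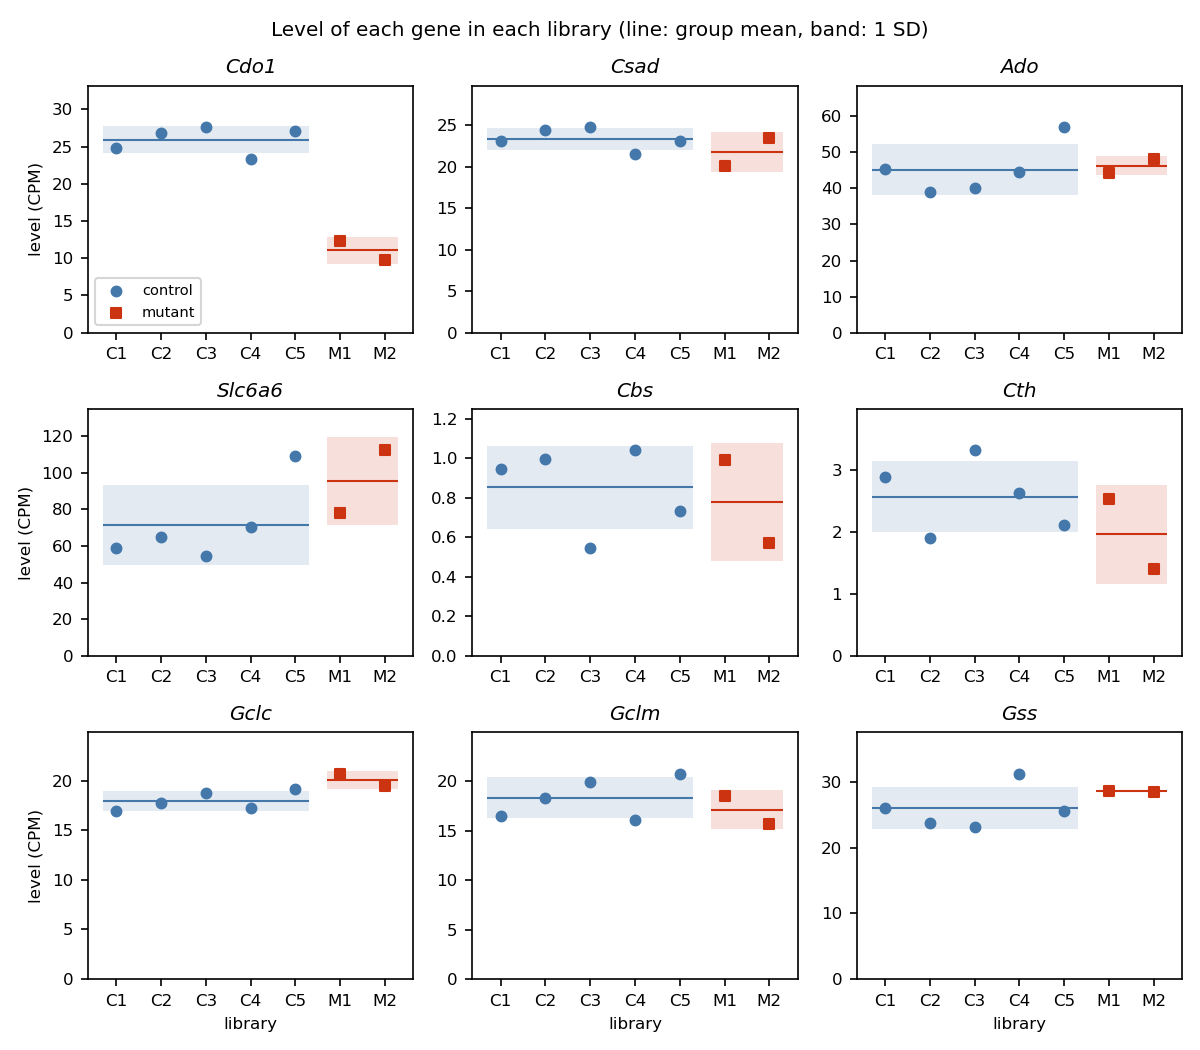
Level in CPM (vertical axes, from 0) of each of the 9 genes in control replicates 1 to 5 (C1 to C5, blue circles) and mutant replicates 1 and 2 (M1 and M2, red squares), with the mean as a line and 1 SD as a band. The Cdo1 values of both libraries labelled mutant, 12.3 and 9.76 CPM, lie below all 5 controls, and Slc6a6 stands high in C5 and M2.

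Cdo1 encodes cysteine dioxygenase, an iron enzyme that commits cysteine to breakdown, and lies on chromosome 18 (46713193 to 46728502 in mm10, GRCm38, the build of all positions here). Control replicates 1 to 5 had 577, 564, 608, 471 and 665 Cdo1 reads, and mutant replicates 1 and 2 had 249 and 223. Scaled to library size, this was 24.8, 26.8, 27.6, 23.3 and 27.1 CPM in the controls against 12.3 and 9.76 CPM. The controls lay close together and both libraries labelled mutant stood apart below them, with no overlap. Non-overlapping groups with lower levels in the libraries labelled mutant occurred for 10.4% of all tested genes, and Cdo1 was chosen for its lower counts. The mean was 25.9 ± 1.79 CPM over the controls (SD, n = 5) and 11.0 ± 1.83 CPM over the others (SD, n = 2). The log2 fold change of -1.23 (SE 0.13) puts the libraries labelled mutant at 42.6% of the control level, with a 95% interval of 35.1% to 51.7%. Cdo1 was chosen for this difference, so its size may be overstated and the interval is a description and no test. In the authors' deposited table of 668 genes Cdo1 has a log fold change of -1.24 and is the only 1 of the 9 genes listed.

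Within the controls Cdo1 was one of the steadier genes of the set. Its coefficient of variation over the 5 controls was 6.92%, where counting error alone gives about 4.16%. Csad (5.56%) and Gclc (5.51%) varied as little, while Ado varied by 15.7% and Slc6a6 by 30.6%. Levels of different genes can be compared only per length, as CPM per kilobase of annotated exon. On that scale Cdo1 had the highest control level of the set, 15.8 ± 1.09 (SD, n = 5), and its lowest control, at 14.2, was above the highest control of every other gene. The lengths join all annotated exons of a gene, 1.64 kb for Cdo1 and 5.92 kb for Gss, and the order depends on them. Without the length, Cdo1 and Gss averaged 25.9 and 26.0 CPM over the controls.

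Below Cdo1 came Ado at 10.2 ± 1.60 CPM per kilobase and Slc6a6 at 8.47 ± 2.59, whose ranges over the controls overlapped. Csad followed at 6.10 ± 0.339, then Gclc at 4.77 ± 0.263 and Gss at 4.39 ± 0.54, a pair with overlapping ranges, and Gclm at 2.91 ± 0.33. The transsulfuration genes were lowest, Cth at 0.92 ± 0.205 and Cbs at 0.114 ± 0.0278 (SD, n = 5 for each). In the libraries labelled mutant the mean Cdo1 level was 6.72 CPM per kilobase, below Slc6a6 (11.3) and Ado (10.4) and above Csad (5.68).

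Csad, on chromosome 15 at 102176997 to 102205052, encodes the enzyme that acts directly on the product of Cdo1. Its level was 23.1, 24.4, 24.8, 21.5 and 23.1 CPM in control replicates 1 to 5 and 20.1 and 23.5 CPM in mutant replicates 1 and 2. Mutant replicate 1 was below every control and mutant replicate 2 was inside their range. The log2 fold change was -0.10 (SE 0.10) with a 95% interval of -0.33 to 0.13 and an adjusted p of 0.645 by the edgeR quasi-likelihood test. The interval corresponds to 79.5% to 109% of the control level. Exons of Zfp740 on the other strand overlap 7.26% of the exon bases of Csad, and reads from the shared part cannot be told apart with a kit that does not mark strand.

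Ado, on chromosome 10 at 67544511 to 67548955, encodes cysteamine dioxygenase, which also oxidises N-terminal cysteines of some proteins. Its level was 45.3, 39.1, 40.2, 44.5 and 57.0 CPM in the controls and 44.4 and 48.3 CPM in the libraries labelled mutant. Control replicate 5 was the highest library, and both libraries labelled mutant lay inside the control range. The log2 fold change was 0.03 (SE 0.14), with a 95% interval of -0.27 to 0.34 and an adjusted p of 0.924 (edgeR quasi-likelihood test).

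Counts of the 3 genes of hypotaurine synthesis can also be set against each other within a library. The ratio of Cdo1 to Csad counts, which does not depend on library size, was 1.08, 1.10, 1.11, 1.08 and 1.17 in control replicates 1 to 5. It was 0.615 and 0.416 in mutant replicates 1 and 2. The ratio of Cdo1 to Ado counts was 0.475 to 0.687 in the controls, against 0.278 and 0.202 in mutant replicates 1 and 2. The ratio to Gclc counts was 1.35 to 1.51 against 0.596 and 0.502. All 3 ratios were lower in both libraries labelled mutant than in every control, and since Cdo1 was chosen for its difference they are given without a test.

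**Figure D2:**
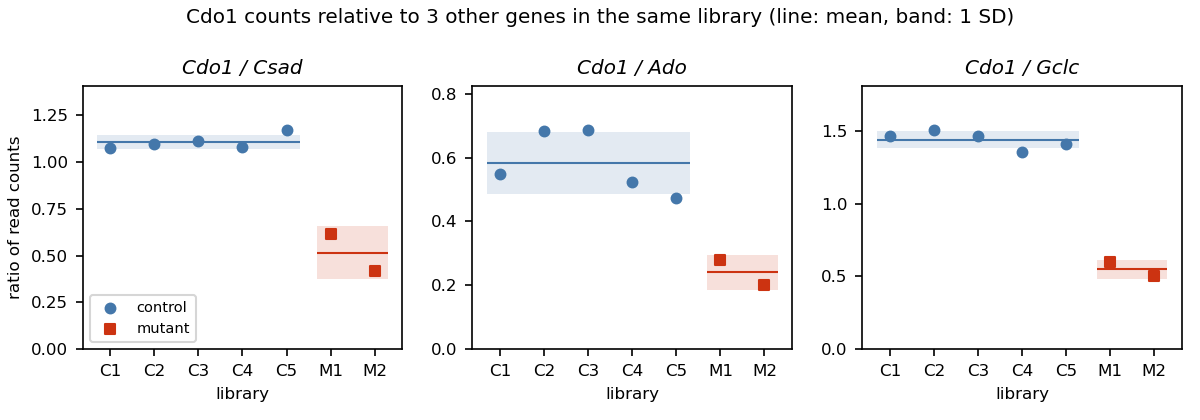
Ratio of Cdo1 read counts to those of Csad, Ado and Gclc (vertical axes, from 0) in each library, with controls C1 to C5 as blue circles, libraries labelled mutant M1 and M2 as red squares, the mean as a line and 1 SD as a band. The ratio to Csad is 1.08 to 1.17 in the controls and 0.615 and 0.416 in M1 and M2, and the groups do not overlap in any panel.

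Slc6a6, on chromosome 6 at 91684048 to 91759063, encodes the sodium- and chloride-dependent taurine transporter. Its level was 58.7, 65.1, 54.8, 70.3 and 109 CPM in control replicates 1 to 5 and 78.3 and 112 CPM in mutant replicates 1 and 2. Control replicate 5 and mutant replicate 2 had nearly the same high level, mutant replicate 1 was above the 4 other controls, and the groups overlapped. The log2 fold change was 0.41 (SE 0.25) with a 95% interval of -0.16 to 0.98 and an adjusted p of 0.432 by the edgeR quasi-likelihood test. The value rested on single libraries. It was 0.62 (adjusted p = 0.0591) without control replicate 5, 0.65 (adjusted p = 0.305) without mutant replicate 1 and 0.14 (adjusted p = 0.954) without mutant replicate 2, by the same test. Without both control replicate 5 and mutant replicate 2 it was 0.34 (adjusted p = 0.329). It was 0.22 with a term for Xist (adjusted p = 0.783) and 0.23 among the 5 libraries with Xist over 10 CPM (adjusted p = 0.83), by the same test.

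Cdo1 did not share this pattern. Its level in control replicate 5, 27.1 CPM, was inside the range of the other controls, and its log2 fold change was -1.05 (SE 0.14) without control replicate 5 and mutant replicate 2. The ratio of Slc6a6 to Csad counts was 2.21 to 3.26 in control replicates 1 to 4 and 4.74 in control replicate 5, and 3.90 and 4.79 in the libraries labelled mutant.

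Both transsulfuration genes were scarce in the ventricle. Cbs, on chromosome 17 at 31612623 to 31637233, had 22, 21, 12, 21 and 18 counts in the controls, with 20 and 13 in mutant replicates 1 and 2. Cth, on chromosome 3 at 157894248 to 157925081, had 67, 40, 73, 53 and 52 counts in the controls, with 51 and 32 in mutant replicates 1 and 2. The groups overlapped for Cbs and for Cth, although mutant replicate 2 had the lowest Cth level of the 7 libraries in CPM (1.40, against 1.90 to 3.32 in the controls).

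The log2 fold change was -0.13 (SE 0.37) for Cbs, with an edgeR quasi-likelihood adjusted p of 0.886, and -0.39 (SE 0.31) for Cth, with an adjusted p of 0.541. Counting error alone gives a coefficient of variation of about 23.1% for Cbs, nearly all of the 24.4% measured over the controls. The 95% intervals reached from 51.3% to 162% of the control level for Cbs and from 47.6% to 122% for Cth. Falls that stay above these lower bounds are compatible with these libraries. The bounds do not say how large a fall would have been called. For Cth the coefficient of variation from counting error was 13.2%, beside 22.3% measured over the controls. The Cth difference depended on single libraries, with log2 fold changes of -0.87 (adjusted p = 0.224) without mutant replicate 1 and -0.011 (adjusted p = 0.997) without mutant replicate 2, by the edgeR quasi-likelihood test, and of -0.18 with a term for Xist.

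Glutathione synthesis starts with glutamate-cysteine ligase. Gclc, its catalytic subunit, on chromosome 9 at 77754535 to 77794489, was at 16.9, 17.8, 18.8, 17.2 and 19.2 CPM in the controls and at 20.7 and 19.4 CPM in the libraries labelled mutant. Gclm, the modifier subunit, on chromosome 3 at 122245487 to 122267215, was at 16.4, 18.3, 19.9, 16.0 and 20.8 CPM in the controls and at 18.5 and 15.7 CPM. Both Gclc values in the libraries labelled mutant were above every control, by a small margin, while Gclm was inside the control range in mutant replicate 1 and just below it in mutant replicate 2. Non-overlapping groups with higher levels in the libraries labelled mutant occurred for 9.73% of all tested genes.

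The log2 fold change was 0.16 (SE 0.10) for Gclc and -0.10 (SE 0.13) for Gclm, with adjusted p of 0.442 and 0.736 by the edgeR quasi-likelihood test. The ratio of Gclc to Gclm counts was 0.926 to 1.07 in the controls, against 1.12 and 1.24 in mutant replicates 1 and 2. This ratio too did not overlap between the groups. All other computed ratios without Cdo1 overlapped, such as that of Gclc to Gss (0.551 to 0.812, against 0.724 and 0.681). How often ratios of any genes fail to overlap was not counted, so nothing is read from this.

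Gss, on chromosome 2 at 155563181 to 155592810, encodes the enzyme that adds glycine to complete glutathione. It was at 26.0, 23.8, 23.2, 31.3 and 25.6 CPM in the controls and at 28.6 and 28.5 CPM in the libraries labelled mutant, inside the control range in both. Its log2 fold change was 0.14 (SE 0.12), with an adjusted p of 0.588 (edgeR quasi-likelihood test). Exons of Acss2 on the other strand overlap 6.68% of its exon bases. The 95% intervals of the 3 glutathione genes together ran from 76.1% of the control level, for Gclm, to 132%, for Gss.

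**Figure D3:**
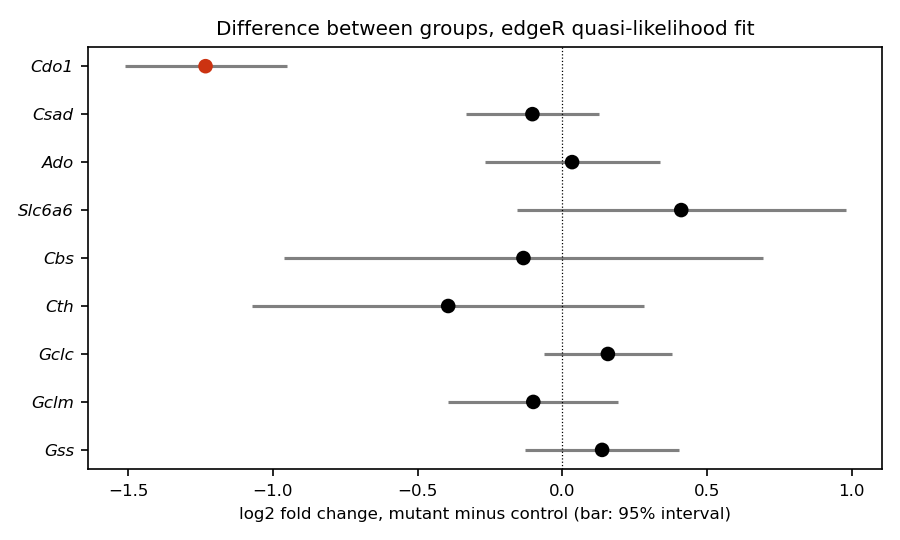
Log2 fold change of each of the 9 genes (points) with its 95% interval (bars) from the edgeR quasi-likelihood fit of 2 libraries labelled mutant against 5 controls. The intervals of the 8 genes other than Cdo1 include 0. Cdo1 (-1.51 to -0.95) was chosen for its lower counts in the libraries labelled mutant, and its interval is shown as a description.

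Gclc and Gclm are textbook targets of the stress factor NRF2, which binds antioxidant response elements. RefSeq upstream windows (GRCm38.p6, 250 bases before a transcript start) were at hand for Ado, Cbs, Csad (2 starts), Gclm and Gss. They were searched on both strands for TGACNNNGC, the core of that element, and for AGGTGTNA, a T-box motif. The element was found in the window of Gclm, beginning 134 bases before that transcript start and 64 bases before the earlier gene start given above, and in 10.2% of the 32851 windows of all genes. The T-box letters were in none of the 6 windows and in 2.68% of all windows. The part of the Gclm window before the gene start is shown as the one that holds a match, at chr3:122245307-122245486 on the plus strand, with the element, here on the opposite strand, in capitals.
Gclm: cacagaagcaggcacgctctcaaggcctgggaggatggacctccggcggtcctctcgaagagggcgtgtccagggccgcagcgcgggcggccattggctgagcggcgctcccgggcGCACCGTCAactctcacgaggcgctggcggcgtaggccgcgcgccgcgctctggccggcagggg

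The wider pathway was described with 8 lists of genes that neighbour or regulate the 9. Without the 9 themselves the lists held 108 tested genes, and 0 of them were called, beside 1.36% of all tested genes. At an unadjusted p under 0.05 there were 20 of the 108 (18.5%), close to the 17.6% of all genes. Groups did not overlap for 14 lower and 7 higher genes, 19.4% of the 108 against 20.2% of all tested genes. Nupr1, a stress-induced chromatin protein, was the only 1 of the 108 with a lower log2 fold change than Cdo1, at -1.26 (SE 0.55) from 3 to 33 counts a library. Nupr1 was not called (adjusted p = 0.268, edgeR quasi-likelihood test) and was named after its values were seen.

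Of 13 tested genes related to taurine, 11 had positive log2 fold changes, with a median of 0.13. The highest was that of Gadl1, at 1.43 (SE 0.51) from 5 to 42 counts a library, with no overlap. Gadl1 was not called (adjusted p = 0.189, edgeR quasi-likelihood test) and was named after its values were seen. Got2 and Got1, aminotransferases that can also use cysteinesulfinate, were the most abundant. Got2 averaged 464 ± 21.7 CPM over the controls (SD, n = 5) and 569 ± 26.9 CPM over both libraries labelled mutant (SD, n = 2), with no overlap, a log2 fold change of 0.29 (SE 0.08) and an adjusted p of 0.115 by the edgeR quasi-likelihood test. Got1 had 0.13 (SE 0.10). Of 11 genes of the methionine cycle, 6 were positive and 5 negative, with a median of 0.0046. Mat2a, which makes S-adenosylmethionine, was at 0.13 (SE 0.08) on the log2 scale, and Ahcy, which yields homocysteine, at -0.05 (SE 0.11).

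Of 6 genes of sulfide and sulfite oxidation 5 were negative, with a median of -0.08. Mpst, a sulfurtransferase, was at 0.06 (SE 0.13) and Selenbp1 at -0.08 (SE 0.14) on the log2 scale. Of 8 genes of cystine and cysteine uptake 5 were negative, with a median of -0.14. Slc3a2, the partner chain of the cystine transporter, had -0.18 (SE 0.10) and Slc1a5 had -0.19 (SE 0.40). Slc7a11, the cystine-transporting chain itself, was scarce: it was at 0.692 to 1.27 CPM in the controls and at 0.446 and 0.394 CPM in the libraries labelled mutant, which did not overlap, with an adjusted p of 0.224 (edgeR quasi-likelihood test). It was named after its values were seen. Of 12 genes that use cysteine for iron-sulfur clusters, coenzyme A and tRNA charging, 8 were positive, with a median of 0.05. Pank3, a pantothenate kinase, had 0.31 (SE 0.16) and the cysteine desulfurase Nfs1 had 0.10 (SE 0.08).

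Of 29 tested genes that use or recycle glutathione 0 were called. Negative log2 fold changes were found for 24 of them, with a median of -0.16, beside 7552 negative values among the 14691 tested genes. Both libraries labelled mutant were below every control for 4 of the 29 and above every control for 0, where the shares over all tested genes were 10.4% and 9.73%. The glutathione peroxidases Gpx3 and Gpx4 were the most abundant, with log2 fold changes of -0.14 (SE 0.15) and -0.13 (SE 0.12). In the list of 17 NRF2-regulated genes, which holds Gclc and Gclm, 13 were negative, with a median of -0.10. Taldo1 of the pentose phosphate pathway was at -0.10 (SE 0.10) and the thioredoxin reductase Txnrd1 at 0.09 (SE 0.09).

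The list of 20 genes regulated by ATF4, the transcription factor of the amino acid response, had the lowest median, -0.21. It holds Cth, and 18 of its 20 genes had negative values. None was called, while the groups did not overlap for 7 lower genes and 0 higher genes, where 10.4% of all tested genes did not overlap in the lower direction. Atf4 itself averaged 138 ± 7.17 CPM over the controls (SD, n = 5) and 121 ± 9.61 CPM over both libraries labelled mutant (SD, n = 2), a log2 fold change of -0.19 (SE 0.09) with an adjusted p of 0.293 by the edgeR quasi-likelihood test. Shmt2, a serine hydroxymethyltransferase of mitochondria, had -0.12 (SE 0.11). Trib3, a pseudokinase induced by ATF4, was named after its values were seen. It is the 1 gene of the 108 in the authors' deposited table of significant genes. In the counts it was at 4.10 ± 0.872 CPM against 2.04 ± 0.0835 CPM (SD, n = 5 and n = 2), with an adjusted p of 0.0835 by the edgeR quasi-likelihood test.

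**Figure D4:**
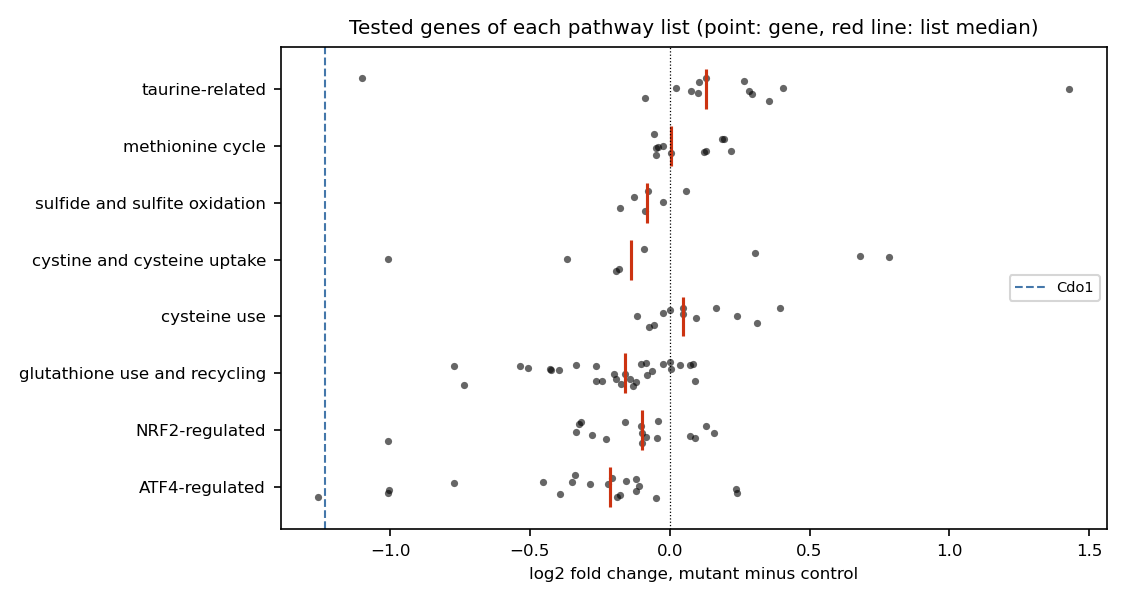
Log2 fold change, mutant minus control (horizontal axis), of each tested gene (points, spread vertically only for legibility) in the 8 pathway lists, with list medians as red lines and the value of Cdo1, -1.23, as a dashed blue line. List medians lie between -0.21 and 0.13, and a single point, Nupr1 in the ATF4-regulated list, lies to the left of Cdo1.

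The libraries labelled mutant also differed in markers of other cell types. In bulk tissue, fewer cells of a type and less RNA per cell cannot be told apart. All 11 markers of cushion mesenchyme and fibroblasts had negative log2 fold changes, 7 were called lower and none was at 0 in any library. Over all tested genes 0.899% were called lower. Their summed level was 2692 to 4634 CPM in the controls and 1639 and 1644 CPM in the libraries labelled mutant. Of 7 atrial markers 5 were called lower, with sums of 798 to 1663 CPM against 538 and 502 CPM. Of 10 macrophage markers 3 were called lower, with sums of 192 to 275 CPM against 185 and 127 CPM, and of 9 epicardial markers 1 was called lower, with sums of 361 to 533 CPM against 380 and 284 CPM.

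Relative to these markers Cdo1 gave different pictures. Per 1000 CPM of cushion and fibroblast markers, Cdo1 was at 5.36 to 10.1 CPM in the controls and at 7.53 and 5.93 CPM in the libraries labelled mutant, inside the control range. Per 1000 CPM of atrial markers it was at 16.6 to 29.2 CPM against 23.0 and 19.4 CPM, again inside the range. Most of the atrial sum came from Myl7, which was named after its values were seen. Myl7 averaged 1109 CPM over the controls and 448 CPM over both libraries labelled mutant, so this ratio mostly follows Myl7. Cdo1 was below the control range per 1000 CPM of macrophage markers (66.8 and 76.6, against 91.2 to 141), of epicardial markers (32.5 and 34.3, against 49.8 to 74.9) and of ventricular markers (0.323 and 0.236, against 0.576 to 0.787). Among the controls alone the summed cushion markers varied by 1.72 times from the lowest to the highest library and the atrial markers by 2.08 times, while Cdo1 varied by 1.18 times. The part of these cell types in the difference in Cdo1 was not tested.

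**Figure D5:**
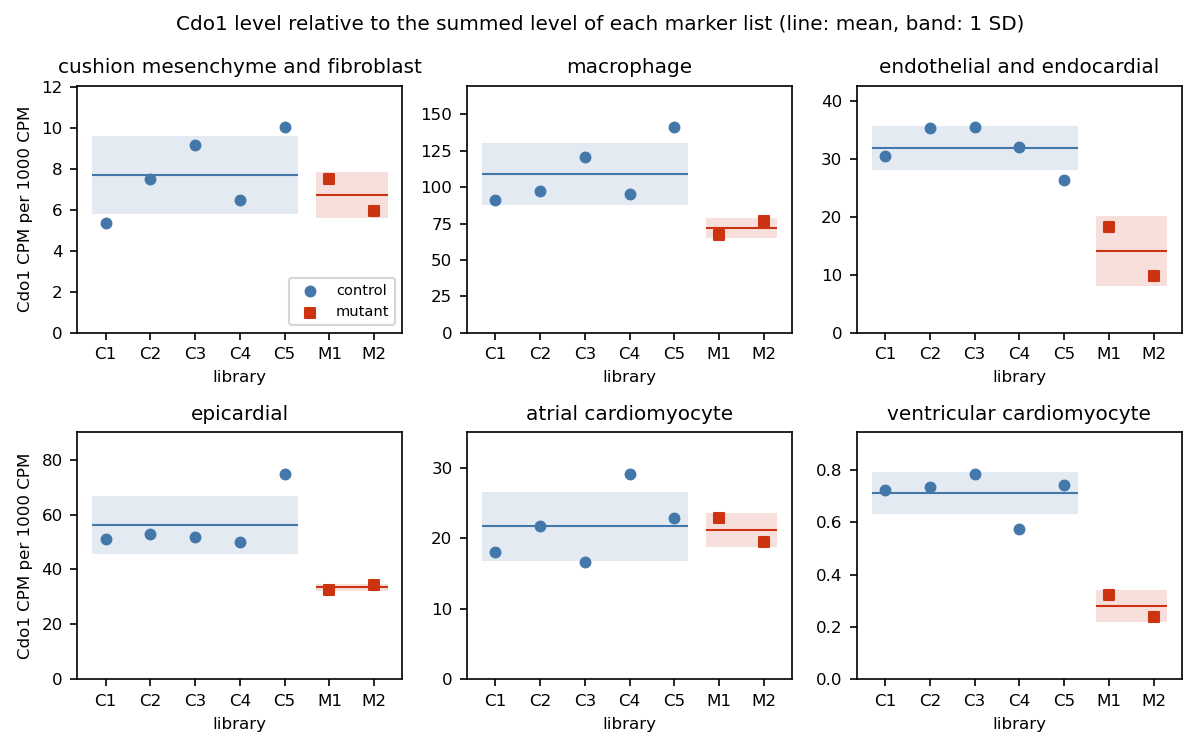
Cdo1 level in CPM per 1000 CPM of the summed markers of 6 cell types (vertical axes, from 0) in each library, with controls C1 to C5 as blue circles, libraries labelled mutant M1 and M2 as red squares, the mean as a line and 1 SD as a band. M1 and M2 lie inside the control range against cushion and fibroblast markers and against atrial markers, and below it in the 4 other panels.

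Of the other lists, 7 endothelial and endocardial markers and 10 erythroid genes had no called gene, with medians of -0.03 and -0.19. Liver expresses Cdo1, Csad, Cbs and Cth strongly, so hepatocyte markers were also read. Their summed level was 26.0 to 41.9 CPM in the controls and 22.3 and 18.8 CPM in the libraries labelled mutant, most of it from transferrin (Trf, named after its values were seen, 26.9 ± 3.46 CPM over the 5 controls), which other tissues also make. The defining markers Alb and Afp were at 1.41 ± 1.13 and 2.1 ± 1.86 CPM over the controls (SD, n = 5), and Hnf4a and Fgb did not pass the filter on low counts.

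The genes whose level most resembled that of Cdo1 over the 7 libraries were Car3, Prss35, Abhd16a, Tcap and Stbd1, taken by the Pearson correlation of log2(CPM + 1) among 13387 genes of at least 1 CPM. They encode a muscle carbonic anhydrase, a protease-like secreted protein, a lipid hydrolase, titin-cap and a glycogen-binding protein. The correlations were 0.982 to 0.983 over 7 libraries and 0.253 to 0.751 over the 5 controls. The genes were picked by the first value, and Cdo1 for its difference between the groups. The higher values over 7 libraries were therefore set by the choice, and nothing is read from them. Car3 was at 6.79 CPM in the controls and 0.896 CPM in the libraries labelled mutant, and Prss35 at 29.1 against 7.93 CPM. Abhd16a differed far less, 43.5 against 39.5 CPM. No gene of the set of 9 was among the 5. Over the 5 controls, which share one normalization, the correlation with Cdo1 was 0.913 for Gclm, 0.876 for Csad and 0.799 for Gclc. It was 0.11 for Slc6a6, -0.017 for Ado, -0.13 for Cth and -0.921 for Gss. Over the 7 libraries that of Gclc was -0.621. The control correlations rest on 5 libraries in which Cdo1 varied by only 1.18 times. How many of all genes reach such values was not counted, so no shared regulation is read from them.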

How the data were processed

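The authors deposited raw whole-number read counts per gene symbol for 7 libraries. Genome build mm10 is named per the submitters' processing notes, as are featureCounts, limma 3.30.13, edgeR 3.16.5, TopHat2 2.1.1 and R 3.3.2. What each tool did, the annotation and the strand setting are not stated there. A second table deposited by the authors lists 668 genes with their log2 fold change, false discovery rate and p-value; base 2 was taken from its match to the values computed here (slope 0.9996). Per the labels' protocols the library kit was a TruSeq RNA kit, of a kind that does not mark strand.

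Counts were filtered with filterByExpr (minimum count 10, minimum total 15), scaled by TMM and tested with glmQLFit and glmQLFTest (edgeR 4.0.16, R 4.3.3, robust, genotype only), with Benjamini-Hochberg adjustment over all 14691 genes. The SE is the size of the log2 fold change divided by the square root of F, and intervals use the fit's degrees of freedom. The test was tried on simulated data for 5 control and 2 mutant libraries with 14691 genes. It recovered 58.1%, 90.6% and 99.7% of changes of 1.5, 2 and 4 times among genes with a mean of at least 100 counts. That limit leaves out genes as scarce as Cbs and Cth, and 7.66% of calls were false. Counts were drawn for each gene on its own, with no variation shared between genes of a library. These percentages may therefore not hold for the real libraries. Within a group, pairs of libraries had a chi-square per degree of freedom of 10.5 to 33.7, so none was a copy.

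The 9 genes and the lists were chosen with earlier results of these data known. Named genes were the 9, the called or else the 2 most abundant genes of each list, the 5 genes most like Cdo1, and cell type markers at or near 0; other list genes are marked. Lists are described by counts and medians, with no set test. Exon lengths came from GENCODE vM21 (GRCm38), positions and upstream windows from RefSeq GRCm38.p6, which held windows for 5 of the 9 genes. Alternatives were DESeq2 1.42.0, limma-voom (limma 3.58.1), other scalings, filters and thresholds, each library left out, a replicate block and sex or haemoglobin adjustment; after the data were seen, edgeR's likelihood ratio test, the 5 libraries above 10 CPM of Xist, and a fit without control replicate 5 and mutant replicate 2 were added. Figures used Python 3.11.15 and matplotlib 3.10.9.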

Additional observations from a re-analysis of the deposited data

Results flagged for a closer look

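Slc6a6 in control replicate 5, at 109 CPM, stood far above the other controls, at 54.8 to 70.3 CPM: the gap took 0.716 of the range, over the limit of 0.71 for 5 samples. The ratio of Cth to Cbs counts in control replicate 3 was 6.08, against 1.91 to 3.05 in the other controls (0.727 of the range), and rests on 73 and 12 counts. In all 34 sets of control values were looked at, and chance marks about 5% of such sets.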

How the results depend on the processing

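The number of genes called, 200 of all tested, was 785 with DESeq2, 114 with limma-voom, 773 with the edgeR likelihood ratio test, 60 with an Xist term, 66 in the libraries with Xist over 10 CPM, 52 without control replicate 5 and mutant replicate 2, 586 at an adjusted p of 0.1 and 2587 at an unadjusted p of 0.05. Leaving out each library in turn gave 12 (without mutant replicate 2) to 275 (without control replicate 5). Without mutant replicate 1, 151 genes were called higher and 62 lower, against 68 and 132 with it. None of the 8 genes other than Cdo1 was called in these alternatives. For Cdo1 the log2 fold change, given as a description, ran from -1.41 (without mutant replicate 1) to -1.05 over 20 fits. With the replicate number as a block, 811 genes and 2 of the 9 were called, the added one being Slc6a6 (log2 fold change 0.60, adjusted p = 0.00611, edgeR quasi-likelihood test). Control replicates 3 to 5 have no mutant library of their number. The differences of that fit therefore rest on replicates 1 and 2 alone. The labels do not say that a number marks a litter or batch, so the samples are taken to share only a number. Deviations from the group means correlated at 0.114 for number 1 and 0.0057 for number 2, but with 2 mutant libraries their deviations mirror each other and this check decides nothing. Log2 fold changes near 0 changed sign: Ado with an Xist term (-0.018) and in libraries with Xist over 10 CPM (-0.014), and Cbs (0.18) and Gclm (0.073) without control replicate 5 and mutant replicate 2. With 1 or both of these or any other single library left out, Ado ran from -0.016 to 0.14, Csad from -0.22 to 0.0049, Cbs from -0.57 to 0.23, Gclm from -0.22 to 0.073, Cth from -0.87 to -0.011 and Slc6a6 from 0.14 to 0.65. The cause was not tested. Depth limits Cbs most.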
